A study of Mus musculus with 7 samples.

Results

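Pools of mouse sperm that were low in RNA encoded by the mitochondrial genome were set against pools that were high in it. The low pools were TG3 replicate 1, nonTG3 replicate 2 and nonTG3 replicate 3, and the high pools were TG3 replicate 2, TG3 replicate 3 and nonTG3 replicate 1. These are 6 of the 7 arrays of the study, and each side of the split holds both genotypes. The sides were chosen by the mean log2 intensity of the mitochondrially encoded genes on these same arrays, so every low against high value below describes these 6 pools and carries no test. Of the 33604 probe sets on the array, 23493 had exactly 1 gene symbol. Of these, 10 read mitochondrially encoded genes and 23483 read nuclear genes, under 22144 symbols.

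The study measured sperm RNA with expression arrays in males of a KDM1A transgenic line. KDM1A is a demethylase that removes methyl groups from histone H3. TG3 males carried the transgene in generation 3, and nonTG3 males were littermates of generation 3 that had not inherited it. The line went back to a construct injected into C57BL/6 zygotes and a pair of female founders, and it was kept by mating heterozygous males to C57BL/6 females. Each TG3 or nonTG3 array held RNA pooled from 4 males, and the C57BL/6 array held RNA from 5 males. The C57BL/6 pool lies outside the split and has no replicate. The labels name neither the promoter of the transgene nor the founder behind each pool, and they leave unsaid whether any male gave RNA to several pools. The spread between pools is therefore the only error measured.

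Mitochondrial DNA codes for a few core subunits of the respiratory chain, and nuclear DNA codes for all others, which are made in the cytosol and imported. In a mature sperm, mitochondria are wrapped around the midpiece of the flagellum. The sperm nucleus is packed with protamines and makes hardly any RNA, so most sperm RNA is left from earlier stages in the testis or is taken up in the epididymis, the duct in which sperm mature and are stored. RNA from a sperm sample can also come from cells of that duct, its muscle coat and its connective tissue.

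Values are log2 intensities after RMA, a method that corrects background, brings arrays to a common distribution and combines the probes of a probe set. One unit is a factor of 2 in intensity. The array medians lay between 3.52 and 3.61, and whether a value below them is above background was not measured. Transcripts of the sperm lineage were bright on both sides. Tnp2, a transition protein that replaces histones, read 11.18, 11.18 and 11.41 on the low pools and 11.01, 10.86 and 11.16 on the high pools. Smcp, a protein of the sperm mitochondrial capsule, read 11.59, 11.56 and 11.77 on the low pools and 11.87, 12.11 and 11.87 on the high pools. Prm1, a protamine, differed by 0.09. Throughout, low pools are given in the order TG3 replicate 1, nonTG3 replicate 2 and nonTG3 replicate 3, and high pools in the order TG3 replicate 2, TG3 replicate 3 and nonTG3 replicate 1.

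The mean of the 10 mitochondrially encoded genes was 8.80, 9.98 and 8.91 on the low pools and 11.44, 11.51 and 11.55 on the high pools. The pools nearest to the line between the sides were nonTG3 replicate 2 at 9.98 and TG3 replicate 2 at 11.44. The C57BL/6 pool read 11.24, close to the high pools. In pooled RNA, fewer mitochondria or cells and less RNA in each of them cannot be told apart.

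**Figure D1:**
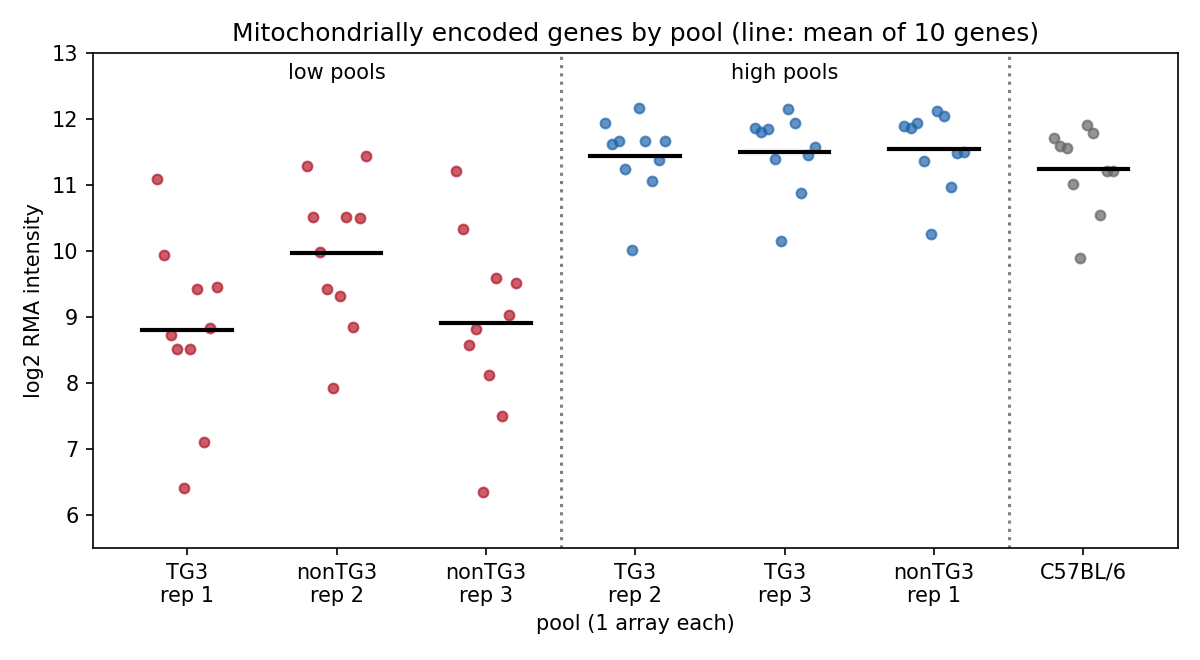
Log2 RMA intensity of each mitochondrially encoded gene (points) and their mean (line) for every pool, with 1 array a pool. The means of the 3 low pools lie between 8.80 and 9.98 and those of the 3 high pools between 11.44 and 11.55, with C57BL/6 at 11.24.

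The genes differed in how far apart the sides lay. ND3, a core subunit of complex I, had the widest separation, with 8.51, 9.32 and 8.12 on the low pools against 12.17, 12.15 and 12.12 on the high pools. COX1, the catalytic subunit of complex IV, had the narrowest, with 11.09, 11.29 and 11.21 against 11.94, 11.86 and 11.89. ND6, the complex I subunit on the other DNA strand, did not set nonTG3 replicate 2 far from the high pools. It read 9.46 and 9.51 on TG3 replicate 1 and nonTG3 replicate 3, but 11.44 on nonTG3 replicate 2, close to the 11.66, 11.58 and 11.50 of the high pools.

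The low pools were not alike. Over all nuclear probe sets, the first principal component of the 6 arrays held 46.5% of the variance, with loadings of -0.43 for TG3 replicate 1 and -0.58 for nonTG3 replicate 3, but only -0.10 for nonTG3 replicate 2. The high pools loaded between 0.24 and 0.56. The second component held 17.9% and set nonTG3 replicate 2, at 0.78, against TG3 replicate 1, at -0.52. Across probe sets, none of them an independent replicate, Pearson's r was 0.980 between TG3 replicate 1 and nonTG3 replicate 3 although their genotypes differ. It was 0.984 between TG3 replicate 2 and nonTG3 replicate 1. All pairs of the 6 pools lay between 0.9425 and 0.984. Correlations of nonTG3 replicate 2 did not follow the split. They were 0.974 with nonTG3 replicate 1 and 0.971 with TG3 replicate 2, both high pools. With the low pools they were 0.973 for nonTG3 replicate 3 and 0.969 for TG3 replicate 1.

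A nuclear probe set was counted as following the split when its 3 low values all lay on one side of its 3 high values and the means differed by at least 1 log2 unit. This held for 215 of 23483 probe sets with lower values on the low pools (0.916%) and for 85 with higher values (0.362%). The same rule applied to TG3 against nonTG3 gave 4 probe sets lower in TG3 (0.017%) and 6 higher (0.0256%). Without the limit of 1 unit, the TG3 values lay wholly below the nonTG3 values in 388 probe sets (1.65%) and wholly above in 581 (2.47%), against 1686 below (7.18%) and 2282 above (9.72%) for the split. At 0.5 units the order of the counts turned, with 833 lower and 1225 higher. The lower set reached further, with a median difference of -1.26 and 17 probe sets at 2 units or more, whereas the higher set had a median of 1.10 and 0 at that distance. The median difference over all nuclear probe sets was 0.0034. Leaving out nonTG3 replicate 2 raised the counts to 399 lower and 251 higher. Leaving out TG3 replicate 2, TG3 replicate 3 or nonTG3 replicate 1 gave 149, 45 or 246 higher. Without TG3 replicate 3, 27 of the 85 higher probe sets were still called, whereas 198 of the 215 lower ones were still called. Cyclic loess scaling gave 298 lower and 47 higher, so that the lower share of all calls went from 71.7% to 86.4%.

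**Figure D2:**
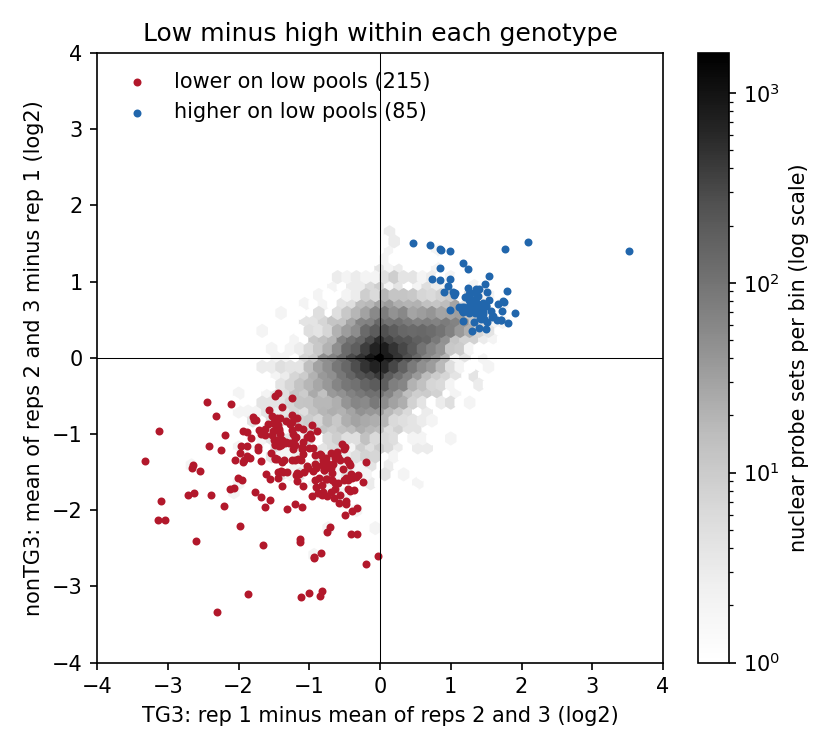
Low minus high difference of each nuclear probe set within TG3 (x axis, log2) and within nonTG3 (y axis, log2). Grey shows the number of probe sets per bin on a log scale, red the 215 probe sets lower on the low pools and blue the 85 higher ones; both colours were placed by the rule that sorts them.

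The split could be read once inside each genotype, on arrays that the other genotype does not share. The difference of TG3 replicate 1 from TG3 replicates 2 and 3 correlated across all nuclear probe sets with the difference of nonTG3 replicates 2 and 3 from nonTG3 replicate 1 (Pearson's r = 0.44). Over the 11742 probe sets at or above the median level, r was 0.57. With nonTG3 replicate 3 as the only low nonTG3 pool r was 0.54, and with nonTG3 replicate 2 as the only one it was 0.21. Of the 215 lower probe sets, 135 were at least 1 unit lower within TG3 and 174 within nonTG3. Of the 85 higher ones, 73 were at least 1 unit higher within TG3 but 15 within nonTG3. Both sets were called on these same arrays by a rule that fixes the direction within each genotype. Only the sizes are described here.

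The 12 genes with the largest lower values on the low pools were Aldh6a1, Zfp36, Ly6f, Fos, Nisch, Wfdc8, Egr1, Gstm2, Slc7a15, Cd24a, Eif4a1 and Atf3. None of them came under 1 unit in any alternative tried. Aldh6a1, a mitochondrial dehydrogenase of valine breakdown that is coded in the nucleus, had the largest difference. It read 5.41, 5.17 and 4.66 on the low pools and 7.50, 7.92 and 8.26 on the high pools. The means were 5.08 ± 0.39 (SD, n = 3) and 7.89 ± 0.38 (SD, n = 3), which is 7.03-fold lower on the low pools, and C57BL/6 stood between them at 6.71. A second Aldh6a1 probe set gave -1.20.

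**Figure D3:**
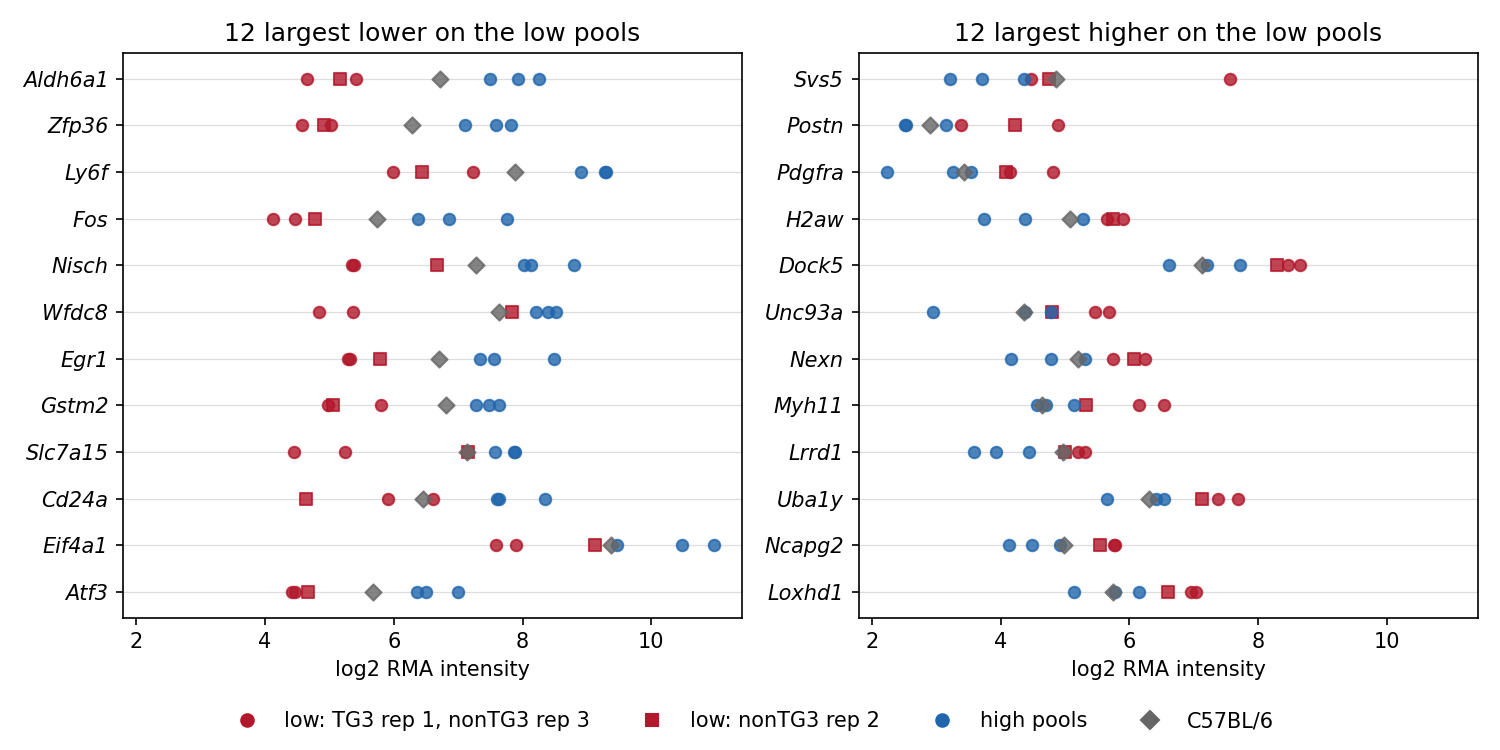
Log2 RMA intensity of the 12 nuclear genes with the largest lower values (left) and the 12 with the largest higher values (right) on the low pools, 1 symbol a pool. Red marks low pools (square: nonTG3 replicate 2), blue high pools and grey diamonds C57BL/6; the red and blue symbols do not overlap because the rule required it, and the lone red symbol far to the right for Svs5 is TG3 replicate 1 at 7.56.

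Immediate early genes are switched on within minutes of a stimulus without new protein synthesis, and their messages are short-lived. Of the 28 measured, 8 were lower by the rule on the low pools and 0 higher, with a list median of -0.17. This is 28.6% of the list, beside 0.916% lower and 0.362% higher over all nuclear probe sets. Their mean level was 4.91, 4.82 and 4.94 on the low pools and 5.77, 5.38 and 5.32 on the high pools, so the sides did not overlap. The list median lay between -0.25, without nonTG3 replicate 1, and -0.16 under the alternatives tried.

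Zfp36, which binds AU-rich messages and speeds their decay, read 4.57, 4.91 and 5.02 on the low pools against 7.82, 7.59 and 7.10 on the high pools, or 4.84 ± 0.24 against 7.51 ± 0.37 (SD, n = 3 each). Fos, a subunit of the AP-1 transcription factor, read 4.47, 4.77 and 4.13 against 7.76, 6.38 and 6.86, which is 5.82-fold lower on the low pools. Egr1, a zinc finger factor, read 5.31, 5.79 and 5.29 against 8.49, 7.56 and 7.35. For each of these genes the low pools lay close together and the high pools were more spread, with TG3 replicate 2 the highest. Atf3, a stress-induced factor of the ATF family, had the tightest low values among them, 4.47, 4.67 and 4.42, against 6.99, 6.36 and 6.50. C57BL/6 lay between the sides for these genes, at 6.29 for Zfp36, 5.74 for Fos, 6.71 for Egr1 and 5.68 for Atf3.

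The remaining called members also had TG3 replicate 2 as their highest pool. Jun, the partner of Fos in AP-1, read 3.37, 3.17 and 3.21 on the low pools and 5.57, 4.14 and 4.51 on the high pools. Fosb, a Fos paralogue, differed by -1.41, Ier2 by -1.26 and Klf6, a Krüppel-like factor, by -1.15. The order among the low pools differed between genes, with TG3 replicate 1 the highest of them for Jun and nonTG3 replicate 3 for Fosb and Klf6. Of the members named for their role, Dusp1, a phosphatase of MAP kinases, differed by -0.07 and overlapped between sides, and Egr2, a paralogue of Egr1, differed by -0.19.

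The promoters of 6 of the called immediate early genes (Zfp36, Fos, Atf3, Jun, Fosb and Klf6) were searched for the CArG box, the site of serum response factor, and for TGACGT, the core of the site bound by CREB and ATF proteins, on both strands. Windows are from RefSeq on GRCm38.p6 and cover 250 bases before to 50 bases after a gene's start. Of the 32851 promoters in that table, 1.63% held a CArG box and 7.51% held TGACGT. Zfp36 held a CArG box, Fos and Atf3 held TGACGT, and Jun, Fosb and Klf6 held neither of these in the window. Egr1 and Ier2 were not searched. The windows with a match are shown, with the matched letters in capitals and each line read along the gene's own strand. They lie 58 bases before the start in Zfp36 (chr7:28379247-28379316, minus strand), 66 in Fos (chr12:85473794-85473859, plus strand) and 8 in Atf3 (chr1:191183334-191183371, minus strand, with the motif on the opposite strand). The windows shown do not overlap each other, and no motif overlaps another.
Zfp36: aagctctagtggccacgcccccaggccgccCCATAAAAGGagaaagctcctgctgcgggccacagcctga
Fos: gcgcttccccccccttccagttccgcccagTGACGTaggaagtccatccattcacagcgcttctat
Atf3: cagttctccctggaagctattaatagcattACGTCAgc
TGACGT was also in the promoter of Flnc, a muscle gene with higher values on the low pools, so a match is a description of the letters.

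Heat shock proteins are chaperones that refold proteins. Of 33 measured, 4 were lower by the rule (12.1%, beside 0.916% over all nuclear probe sets) and 0 higher. The median was -0.19, or -0.07 without nonTG3 replicate 2 and -0.10 without TG3 replicate 2. Hspa1b, an inducible HSP70, read 4.88, 4.17 and 4.05 on the low pools and 6.15, 5.84 and 7.25 on the high pools. Hspa8, the constitutive HSP70 of the cytosol, read 8.05, 6.69 and 6.97 against 9.05, 8.94 and 9.44. A second Hspa8 probe set with nearly the same values gave -1.90 and met the rule. Those at -0.90 and -0.68 overlapped between sides and did not. Both chaperones were nearest to the high pools on TG3 replicate 1. Hspa5 and Hsp90b1, chaperones of the endoplasmic reticulum, differed by -1.29 and -1.08. As a whole the list overlapped between sides, with pool means of 5.45 to 5.63 on the low pools and 5.61 to 5.93 on the high pools. Metallothioneins, which bind zinc and were named after their values were seen, were also lower: Mt2 read 6.63, 6.70 and 6.96 against 8.10, 8.41 and 8.78, and Mt1 differed by -1.29.

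Markers of the epididymal epithelium were the next group with lower values. The epithelium secretes proteins into the duct that coat sperm. Of 52 measured, 5 were lower by the rule (9.62%, beside 0.916% over all nuclear probe sets) and 0 higher. The median was -0.19, or -0.12 without nonTG3 replicate 2. The values of 10 members lay wholly below and those of 2 wholly above the high pools. Over all nuclear probe sets, 7.18% lay wholly below and 9.72% wholly above. The list's pool means were 4.75 to 5.16 on the low pools and 5.17 to 5.34 on the high pools, and the 5.16 belonged to TG3 replicate 1. Whether the number of epithelial cells in the pools had a part in this was not tested.

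Rnase12, a secreted member of the ribonuclease A family, read 7.41, 6.24 and 6.06 on the low pools and 8.27, 8.81 and 8.53 on the high pools. Ces5a, a carboxylesterase secreted by the epididymis, read 8.34, 8.36 and 7.18 against 9.58, 9.50 and 9.69. Adam7, an epididymal membrane protein transferred to sperm, read 8.59, 8.03 and 7.14 against 9.46, 9.14 and 9.80. In Rnase12 and Adam7, TG3 replicate 1 was the low pool nearest to the high side. Wfdc15b differed by -1.37, and Krt18, a keratin of simple epithelia, by -1.19 in one probe set and by -0.34 in another. Lcn5 and Lcn8, lipocalins of the epididymis named for their role, differed by 0.06 and 0.02 and were near or below the array medians on all 6 pools.

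Several secreted families, of which the list above held only some members, were singled out after their values were seen. Of 19 probe sets for Wfdc proteins, small inhibitors of proteases with a whey acidic protein domain, 6 were lower by the rule and 0 higher. Their median was -0.21, and over all nuclear probe sets 0.916% were lower by the rule. Wfdc8 had the largest difference, with 5.36, 7.83 and 4.84 on the low pools against 8.52, 8.39 and 8.21 on the high pools, and here nonTG3 replicate 2 was close to the high side. Wfdc9 read 7.94, 6.81 and 6.94 against 8.46, 8.79 and 8.39, with TG3 replicate 1 the closest instead. Of 13 probe sets for Spink proteins, which inhibit serine proteases, 4 were lower, among them Spink14 with 8.64, 6.70 and 6.63 against 8.84, 9.28 and 8.98. The median of the Spink probe sets was -1.06. Of 41 probe sets for beta-defensins, antimicrobial peptides made along the epididymis, 2 were lower by the rule: Defb38 by -1.53 and Defb43 by -1.45. The median of the beta-defensins was -0.08, but many of them read near or below the array medians on all 6 pools. Brighter members that did not meet the rule differed by -0.96 (Defb2), -0.90 (Defb11), -0.86 (Defb9), -0.84 (Defb40) and -0.58 (Defb28). In each of these, TG3 replicate 1 lay inside or above the range of the high pools. The dimmer Defb33 went the other way, by 0.32.

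Genes for surface proteins and for an enzyme were also among the largest single differences. Ly6f, of the Ly6 family of lipid-anchored surface proteins, read 7.23, 6.43 and 5.99 on the low pools and 8.91, 9.28 and 9.30 on the high pools. Cd24a, a small surface glycoprotein, read 6.61, 4.64 and 5.90 against 7.60, 7.63 and 8.35, and another Cd24a probe set gave -0.85. Gstm2, a glutathione S-transferase, read 5.80, 5.06 and 4.97 against 7.27, 7.64 and 7.48. For all of them TG3 replicate 1 had the highest low value. The C57BL/6 pool read 7.89, 6.45 and 6.81 for Ly6f, Cd24a and Gstm2, in each case below the 3 high pools.

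In a different set of genes it was nonTG3 replicate 2 that approached the high pools. Nisch, which codes for an integrin-binding protein, read 5.38, 6.68 and 5.35 on the low pools and 8.03, 8.80 and 8.14 on the high pools, and its other probe set gave -1.14. Slc7a15, of a family of amino acid transporters, read 5.24, 7.15 and 4.45 against 7.88, 7.87 and 7.58. Eif4a1, the RNA helicase of translation initiation, read 7.59, 9.12 and 7.89 against 10.48, 10.97 and 9.47, while its other probe set gave -0.33 and did not meet the rule. Malat1, a long noncoding RNA kept in the nucleus, read 9.12, 10.66 and 9.84 against 10.74, 11.06 and 11.06, with -1.49 in a second probe set. Firre, a nuclear noncoding RNA from the X chromosome, read 3.99, 6.15 and 4.16 against 6.68, 6.58 and 6.56.

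Counted over the 215 lower probe sets, the low pool nearest to the high side was nonTG3 replicate 2 in 116, TG3 replicate 1 in 81 and nonTG3 replicate 3 in 18. Over all nuclear probe sets the corresponding shares were 40.8%, 39.0% and 20.2%. At least 1 unit below the high mean lay nonTG3 replicate 3 in 203 of the lower probe sets, TG3 replicate 1 in 142 and nonTG3 replicate 2 in 111. The C57BL/6 value was nearer to the mean of the high pools in 122 of them (56.7%), beside 54.0% over all nuclear probe sets, and nearer to that of the low pools in 93. For 110 it lay inside the range of the low pools or below it, and for 30 inside that of the high pools or above it. For the 85 higher probe sets it was nearer to the high pools in 70 (82.4%) and nearer to the low pools in 15.

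Nuclear genes for the respiratory chain were compared because their products work beside the mitochondrially encoded ones. Of 80 measured, 1 was lower by the rule (1.25%, beside 0.916% over all nuclear probe sets) and 0 higher, with a median of -0.26 and 64 members below 0. The called gene was Atp5g2, a copy of the ATP synthase c subunit, with 6.77, 6.31 and 6.41 on the low pools and 7.96, 7.51 and 7.24 on the high pools. The low pools did not act as one side here. The list mean was 5.68 on TG3 replicate 1, 5.07 on nonTG3 replicate 2 and 5.33 on nonTG3 replicate 3, and 5.59 to 5.65 on the high pools. TG3 replicate 1, which had the lowest mitochondrially encoded mean of all pools, therefore had the highest mean of nuclear respiratory genes among these 6. Without nonTG3 replicate 2 the list median was -0.10, and without TG3 replicate 1 it was -0.36.

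The medians of the complexes moved with single pools. Complex I had a median of -0.25 over 32 subunits, complex II of -0.22 over 4, complex III with cytochrome c of -0.13 over 10, complex IV of -0.31 over 17 and ATP synthase of -0.29 over 17. Without nonTG3 replicate 2 they were -0.05 for complex I, -0.10 for complex II, -0.0046 for complex III and -0.10 for ATP synthase. Without TG3 replicate 1 they were -0.23 for complex III, -0.58 for complex IV and -0.44 for ATP synthase, and without TG3 replicate 2 ATP synthase was at -0.19. Ndufa1, a complex I subunit, read 6.06, 3.42 and 4.74 on the low pools against 5.49, 5.70 and 5.73, so that TG3 replicate 1 lay above all high pools. Ndufb11 was one of 4 subunits of complex I that lay wholly below the high pools (12.5%, beside 7.18% over all nuclear probe sets), with 3.83, 4.00 and 3.44 against 4.80, 4.89 and 4.39. The forms specific to the male germ line, named for their role, differed little: Cox6b2 by 0.08 and Cyct, testis cytochrome c, by 0.11.

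The medians of other nuclear genes that serve mitochondria lay closer to 0 than the -0.26 of all nuclear respiratory genes. Of 71 mitochondrial ribosomal proteins 0 were called, beside 0.916% lower and 0.362% higher over all nuclear probe sets. Their median was -0.11, or -0.05 without nonTG3 replicate 2. The median was -0.02 for 28 genes of mitochondrial DNA upkeep and expression, a sign that turned under 3 of 11 alternatives. It was -0.09 for 25 genes of protein import and -0.17 for 17 genes of the tricarboxylic acid cycle, or -0.02 and -0.08 without nonTG3 replicate 2. Protein import was at -0.19 without TG3 replicate 1, and without TG3 replicate 2 import and the cycle were at -0.05 and -0.11. Of the genes of the cycle, 6 lay wholly below the high pools (35.3%) and 3 wholly above (17.6%). Over all nuclear probe sets these shares were 7.18% and 9.72%. The pool means of the cycle overlapped, at 5.01 to 5.28 on the low pools and 5.11 to 5.28 on the high pools. Ssbp1, which coats single-stranded mitochondrial DNA, read 3.27, 4.01 and 2.82 on the low pools and 3.90, 3.94 and 3.97 on the high pools. For 18 genes of glycolysis, a main source of ATP in the sperm tail, the median was -0.02, with a sign that turned under 3 of 11 alternatives.

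Genes of cytosolic ribosomal proteins showed the same division among the low pools as the respiratory genes. Of 63 cytosolic ribosomal proteins, 2 were lower by the rule, Rpsa and Rps6 (3.2%, beside 0.916% over all nuclear probe sets). Another Rpsa probe set gave -0.20 and did not meet the rule. The median of the list was -0.21. The list mean was 6.90 on TG3 replicate 1, 6.06 on nonTG3 replicate 2 and 6.46 on nonTG3 replicate 3, and 6.66 to 6.76 on the high pools. Without nonTG3 replicate 2 the median was -0.0069, and without TG3 replicate 1 it was -0.42. Rplp0, a stalk protein of the large subunit, read 8.76, 6.50 and 7.77 on the low pools against 8.68, 8.46 and 8.50.

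Translation factors had pool means that did not overlap, 6.20 to 6.50 on the low pools and 6.55 to 6.82 on the high pools. Of 35, 4 were lower by the rule (11.4%, beside 0.916% over all nuclear probe sets): Eif4a1, Tpt1, Eef1b2 and Eef1a1. The values of 14 lay wholly below the high pools (40.0%) and those of 6 wholly above (17.1%). Over all nuclear probe sets these shares were 7.18% and 9.72%. Tpt1, a very abundant protein that binds elongation factor 1, read 10.73, 9.24 and 9.80 on the low pools and 11.21, 11.28 and 11.13 on the high pools. Eef1a1, which brings aminoacyl-tRNA to the ribosome, read 9.66, 8.54 and 9.03 against 10.30, 10.05 and 9.99. In both genes TG3 replicate 1 was the nearest low pool and nonTG3 replicate 2 the farthest. Their other probe sets gave -0.64 for Tpt1 and -0.41 for Eef1a1 and did not meet the rule. Of 43 proteasome subunits 1 was called (2.33%), Psmc2 at -1.07, and its other probe set gave -0.20. The values of 10 subunits lay wholly below the high pools (23.3%) and those of 2 wholly above (4.65%), while the pool means of the list overlapped. Of 33 spliceosome genes 0 were called, with a median of -0.12. Their pool means did not overlap, at 5.23 to 5.34 on the low pools and 5.37 to 5.44 on the high pools.

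**Figure D4:**
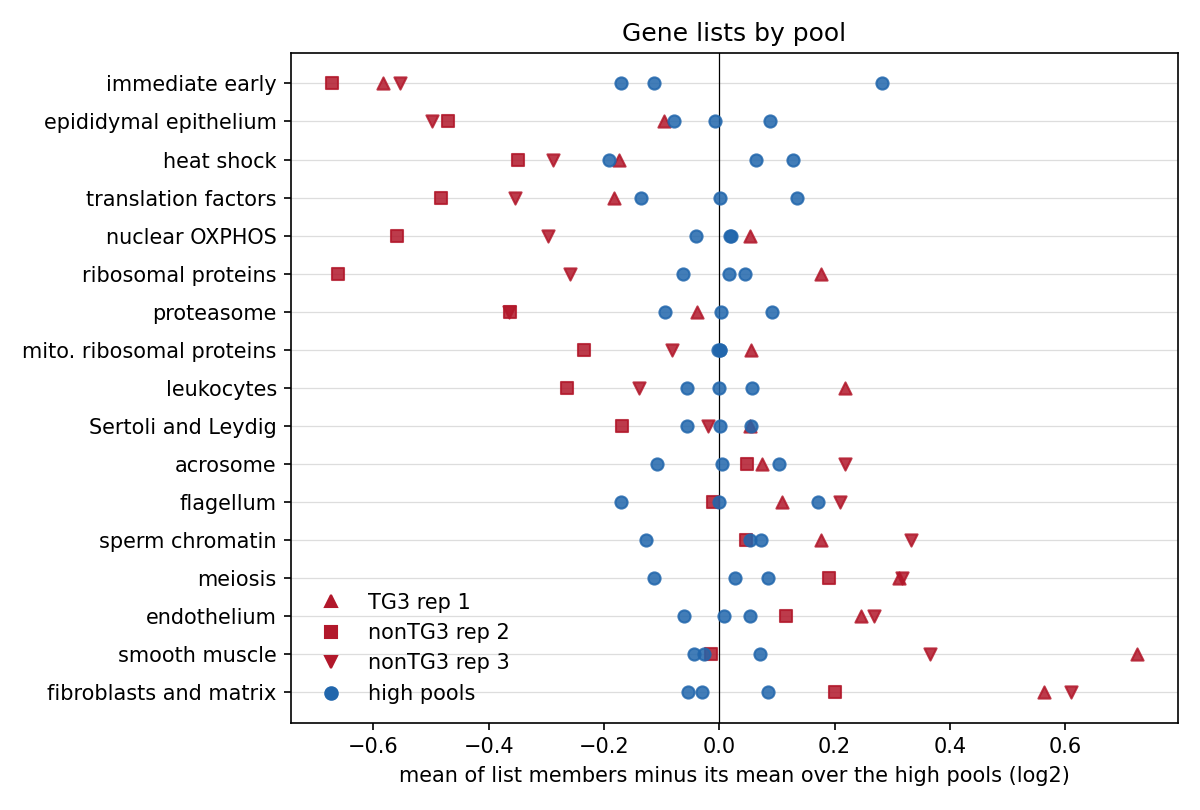
Mean level of each gene list on each pool (log2), drawn as the distance from the list's mean over the 3 high pools. Red symbols are the low pools and blue circles the high pools. Ribosomal proteins and nuclear OXPHOS (oxidative phosphorylation) genes were low on both nonTG3 low pools but not on TG3 replicate 1, whereas smooth muscle genes were highest on TG3 replicate 1.

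The 12 genes with the largest higher values on the low pools included genes of muscle and connective tissue. Of these 12, 11 came under 1 unit in at least 1 alternative, all but Postn. Myh11, the myosin heavy chain of smooth muscle, read 6.54, 5.33 and 6.14 on the low pools and 4.56, 4.70 and 5.15 on the high pools. The means were 6.01 ± 0.62 and 4.80 ± 0.31 (SD, n = 3 each), or 2.30-fold higher on the low pools. Nexn, an actin-binding protein of muscle, read 5.75, 6.07 and 6.24 against 4.78, 4.17 and 5.30.

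Of 33 smooth muscle genes, Myh11 and Flnc were higher by the rule (6.06%, beside 0.362% over all nuclear probe sets) and 0 were lower. Flnc differed by 1.01 and came under 1 unit in 7 of the alternatives. The list median was 0.30. The list mean was 5.19 on TG3 replicate 1, 4.83 on nonTG3 replicate 3 and 4.45 on nonTG3 replicate 2, the last inside the 4.42 to 4.54 of the high pools. Acta2, the actin of smooth muscle, showed this order most plainly, with 8.47, 6.15 and 7.33 on the low pools and 6.15, 6.33 and 7.05 on the high pools. Its sides overlapped. Cnn1, calponin, read 6.30, 4.83 and 5.28 against 4.44, 4.23 and 4.88. Without nonTG3 replicate 2 the list median was 0.39, and without TG3 replicate 1 it was 0.14.

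Fibroblast and matrix genes had the largest list median of all, 0.45 over 43 genes, with 39 above 0. By the rule 2 were higher (4.65%, beside 0.362% over all nuclear probe sets) and 0 lower. Postn, the matrix protein periostin, read 3.38, 4.23 and 4.90 on the low pools and 2.53, 2.51 and 3.14 on the high pools. Pdgfra, the receptor for platelet-derived growth factor that marks fibroblasts, read 4.14, 4.09 and 4.81 against 3.26, 2.23 and 3.54. Several of these values lie below the array medians, which limits what their difference can show. Dcn, the proteoglycan decorin, was brighter and was named for its role. It read 7.62, 6.67 and 7.58 against 6.45, 6.35 and 6.67, so that TG3 replicate 1 and nonTG3 replicate 3 stood about 1 unit above the rest and nonTG3 replicate 2 did not. The list mean was 4.42 to 4.83 on the low pools and 4.17 to 4.31 on the high pools, and its median was 0.65 without nonTG3 replicate 2 and 0.33 without TG3 replicate 1. Whether the number of connective tissue cells in the pools had a part in this was not tested.

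Other cell types showed smaller differences. Of 23 endothelial genes 0 were called, beside 0.916% lower and 0.362% higher over all nuclear probe sets. Their median was 0.13, with pool means of 3.44 to 3.59 on the low pools against 3.26 to 3.37. Vwf, von Willebrand factor, read 7.37, 7.02 and 7.39 against 6.26, 6.04 and 6.63. For 29 leukocyte genes the median was -0.02 and the sides overlapped, although TG3 replicate 1 had the highest mean, 4.26. Ptprc, the surface marker of leukocytes named for its role, read between 3.03 and 3.25 on all 6 pools, below the array medians. For 26 genes of Sertoli and Leydig cells the median was -0.02, with a sign that turned under 5 of 11 alternatives, and for 19 genes of fat cells it was 0.07, or 0.02 without TG3 replicate 1 or nonTG3 replicate 1 and 0.04 without TG3 replicate 2.

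Lists of germ line genes (sperm chromatin, acrosome, flagellum, meiosis and spermatogonia) had medians above 0, with 0 genes called in each. Over all nuclear probe sets 0.916% were lower and 0.362% higher by the rule, so 0 in lists of this size says little. The median was 0.22 for 39 meiotic genes, of which 9 lay wholly above the high pools and 0 wholly below. It was 0.13 for 61 genes of the flagellum, of which 14 lay wholly above and 2 wholly below, where all nuclear probe sets gave 9.72% and 7.18%. The flagellum median was 0.05 without nonTG3 replicate 1, 0.07 without TG3 replicate 3 and 0.21 without TG3 replicate 2. Stag3, a cohesin of meiosis, read 7.58, 7.22 and 7.61 on the low pools against 6.67, 5.85 and 7.04. Ropn1, a protein of the fibrous sheath of the sperm tail, read 6.05, 5.80 and 6.12 against 5.58, 4.71 and 5.61. Chd5, a chromatin remodeller of spermiogenesis, read 10.44, 10.27 and 10.66 against 9.70, 9.29 and 10.03. In these genes TG3 replicate 3 was the lowest pool. Cyclic loess scaling brought Hydin, a protein of the central pair of the axoneme, from 0.71 to 0.34 and Chd5 from 0.78 to 0.32, and turned the median of 20 sperm chromatin genes from 0.13 to -0.02. That median was 0.06 without nonTG3 replicate 3 and 0.21 without nonTG3 replicate 2.

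Single genes outside these lists completed the largest higher values. Dock5, an activator of the GTPase Rac, read 8.46, 8.29 and 8.65 on the low pools and 7.20, 6.62 and 7.72 on the high pools. Ncapg2, of the condensin II complex, read 5.77, 5.54 and 5.78 against 4.93, 4.12 and 4.49. The low pools lay within 0.4 units of each other in both genes. Uba1y, a ubiquitin-activating enzyme of the Y chromosome, differed by 1.19, H2aw, a histone H2A gene, by 1.30, Loxhd1 by 1.17, Unc93a by 1.28 and Lrrd1 by 1.19. Syne1, a giant protein of the nuclear envelope, was singled out after its values were seen because 10 of its 59 probe sets were higher by the rule, by 1.02 to 1.54. Over all nuclear probe sets 0.362% were higher by the rule, and the median of the 59 was 0.52. The 10 called Syne1 probe sets count separately among the 85.

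Svs5, a secretory protein of the seminal vesicle, had the largest difference among the higher named genes, and it rested on 1 pool. It read 7.56 on TG3 replicate 1, 4.75 and 4.47 on the other low pools, and 3.72, 4.37 and 3.21 on the high pools. Without TG3 replicate 1 its difference went from 1.83 to 0.85. Svs2 and Svs4, of the same family and named after their values were seen, were also high on TG3 replicate 1 alone, at 4.32 and 5.31, against at most 2.26 and 3.58 on the other pools of the line. The family did not act as one. Of its 7 probe sets 1 met the rule, beside 0.362% higher over all nuclear probe sets. Svs1 was highest on nonTG3 replicate 1, at 4.28 against 3.97 on TG3 replicate 1. Svs3b was highest on TG3 replicate 2, at 4.07 against 3.86 on TG3 replicate 1.

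Among 478 microRNA genes, 5 were lower by the rule (1.05%) and 1 higher (0.209%), with a median of 0.02. These shares are near the 0.916% and 0.362% of all nuclear probe sets, so the genes below are given as single values. MicroRNAs are short RNAs that pair with messages through their seed, bases 2 to 8. The array reads the gene or precursor, so the values do not tell the mature arm. Mir5125 had the largest difference, with 6.17, 8.81 and 6.46 on the low pools and 9.46, 9.54 and 8.99 on the high pools, and nonTG3 replicate 2 again close to the high side. Mir692-1 read 6.75, 5.88 and 6.36 against 7.20, 7.41 and 7.47, with TG3 replicate 1 the nearest. Mir703 differed by -1.02, Mir1970 by -1.14 and Mir5128 by -1.27, and Mir301b was the higher one, at 1.06. The mature sequence of the gene with the largest difference and the 5p arm alone of the only higher one follow from RefSeq (GRCm38.p6), with the seed in capitals. They lie at chr17:23823339-23823358 (plus strand) and chr16:17124456-17124477 (minus strand).
miR-5125: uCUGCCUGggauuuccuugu
miR-301b-5p: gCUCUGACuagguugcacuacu

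Small nucleolar RNAs, which guide chemical changes of ribosomal RNA, went both ways. Of 78, 2 were lower (2.56%) and 3 higher (3.85%) by the rule, beside 0.916% and 0.362% over all nuclear probe sets. Snord1b had the largest difference of the 85 higher probe sets, with 3.66, 3.10 and 4.25 on the low pools against 1.64, 1.49 and 2.15. All its values on the high pools lay below the array medians. Snord35a was brighter, with 7.54, 6.96 and 7.29 against 6.06, 5.53 and 6.39. Snora28 was lower, with 3.70, 4.20 and 3.58 against 5.22, 5.95 and 5.05. Olfactory receptors, of which 1088 were measured and which were mostly dim, had 2 higher (0.184%, beside 0.362% over all nuclear probe sets), 0 lower and a median of 0.04.

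Genotype did not enter the split, so TG3 against nonTG3 could be tested on these pools. limma called 0 of 23493 probe sets at an adjusted p under 0.05, with a smallest adjusted p of 0.923 and 559 probe sets at an unadjusted p under 0.05 (2.38%). With the side of the split as a further term the count stayed at 0, with a smallest adjusted p of 0.989 and 846 at an unadjusted p under 0.05. Kdm1a, the mouse gene for the demethylase, read 5.06, 5.27 and 5.27 on the low pools and 5.27, 5.27 and 5.07 on the high pools, and whether its probe set reads the transgene was not stated in the sources at hand.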

How the data were processed

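The deposited table holds log2 intensities that the authors made with RMA. The submitters' processing notes name R 3.1.0 with oligo, RMA and limma. Probe set filters, scan batches and a genome build are not stated in the sources at hand. The precision is limited by the number of arrays. Gene names came from the platform annotation, and probe sets with several symbols (1801) or none (8310) were left out. Mitochondrially encoded genes were found through RefSeq (GRCm38.p6), where 23300 of the 23493 probe sets with 1 symbol matched.

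The members and the gene lists were chosen with earlier results of these data known. In a list, each gene has 1 probe set, the brightest. Named genes are the 12 largest lower and the 12 largest higher, leaving out predicted, clone, receptor and small RNA names and genes dimmer than the median on their brighter side, up to 4 members with the largest difference of each list, and Kdm1a. The rest were named for their role or after their values were seen.

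Genotype was tested with limma 3.58.1 in R 4.3.3, with a mean per group over all 7 arrays and Benjamini-Hochberg adjustment, and the steps were tested on simulated data. Deviations of same-numbered TG3 and nonTG3 pools correlated at -0.45, 0.016 and -0.40. The split puts pools of the same number on opposite sides, so these values cannot tell whether such pools were handled together. The main fit did not pair them. Alternatives covered scalings, thresholds, filters and each array left out. Figures were drawn with matplotlib 3.10.9.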

Additional observations from a re-analysis of the deposited data

How the results depend on the processing

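Counts of probe sets that follow the split moved with the threshold and with single pools, from 215 lower and 85 higher. A difference of 0.5 log2 units gave 833 lower and 1225 higher, and 2 units gave 17 and 0. With all probe sets, named or not, 155 were higher. Cyclic loess gave 47 higher. Leaving out 1 pool gave 164 to 399 lower and 45 to 251 higher. Genotype gave 0 calls with limma under every alternative, with the replicate block (443 at an unadjusted p under 0.05, smallest adjusted p 0.995) and with each array left out (445 to 1424). No named gene that met the rule changed sign under the scalings. With 1 array left out none could, because the sides of a called gene do not overlap. Kdm1a, near 0, changed sign under some of the scalings and left-out arrays. Of the 12 largest higher genes, 11 came under 1 unit in at least 1 of them (Unc93a at 0.73, Svs5 at 0.85), and of the 12 largest lower genes 0 did. Of list medians, 385 comparisons stayed within the spread of the pools and 11 moved. The cause was not tested. With 3 arrays a side and pooled males, differences between animals cannot be seen, and values below the array medians may not be above background.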
